A study of Mus musculus with 6 samples.

Results

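The Ighv genes are the variable segments of the immunoglobulin heavy chain locus. The members were all rows of the deposited mouse gene count table that GENCODE M21 annotates as IG_V_gene with a symbol starting with Ighv, which gave 113 of 55401 rows. A further 70 Ighv rows annotated as pseudogenes and 2 Ighv rows of another biotype (IG_LV_gene) were not members. RNA had been measured in 3 libraries of LSK cells, the lineage-negative, Sca-1-positive, c-Kit-positive stem and progenitor fraction, sorted from bone marrow of untreated wild-type C57BL/6 mice aged 6 to 8 weeks. The other 3 libraries were of ESC-derived Lin-Sca-1+c-Kit- cells, labelled wild type and obtained by differentiation of embryonic stem cells. They were sorted from the marrow of primary recipients that had been transplanted with CD144+ cells, CD144 being the endothelial cadherin. Each library was made from 2000 cells. The labels do not state the strain of the embryonic stem cells and recipients or how far host cells were kept out of the sort. The 2 sorts differ in origin and in c-Kit, so these cannot be told apart in any comparison.

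A heavy chain gene is assembled in developing B cells by joining V, D and J segments, which the RAG recombinase cuts at their flanking signals. The joined V exon, read out from the promoter of its own segment and spliced to a constant region, then encodes most of the antigen-binding part of the heavy chain. Each B cell and its progeny usually carry a single productive heavy chain rearrangement, plasma cells hold very large amounts of its mRNA, and transcripts of unrearranged V segments are also made in early lymphoid progenitors.

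The members lay on the minus strand of chromosome 12 (mm10) between 113578504 and 116000461, a span of 2.42 Mb, with Ighv5-2 nearest to the D segments and Ighv1-85 farthest from them. A V segment typically has a short leader exon and a V exon, although the annotated exons of a member can differ between its transcripts, and the annotated exon length was 294 to 480 bases with a median of 353. The segments differ enough to be counted apart in some cases and hardly at all in others, so the ends of the segments that led the libraries are shown here. They are the last 150 bases of the GENCODE M21 transcript, 5′ to 3′ on the coding strand. Capitals mark the last in-frame cysteine codon, the residue after which the antigen-binding CDR3 loop begins. Ighv1-5 (chr12:114513330-114513807), Ighv1-81 (chr12:115920279-115920712), Ighv11-2 (chr12:114048241-114048812) and Ighv1-54 (chr12:115193675-115194134) led the LSK libraries. Ighv1-82 (chr12:115952538-115953005) and Ighv1-52 (chr12:115145487-115145919) led ESC-derived replicates 1 and 2.
Ighv1-5: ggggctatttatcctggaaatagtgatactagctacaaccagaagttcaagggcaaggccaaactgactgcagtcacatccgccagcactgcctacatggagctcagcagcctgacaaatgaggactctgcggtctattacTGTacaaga
Ighv1-81: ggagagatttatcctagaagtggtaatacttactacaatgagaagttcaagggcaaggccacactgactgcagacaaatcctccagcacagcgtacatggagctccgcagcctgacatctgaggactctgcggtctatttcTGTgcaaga
Ighv11-2: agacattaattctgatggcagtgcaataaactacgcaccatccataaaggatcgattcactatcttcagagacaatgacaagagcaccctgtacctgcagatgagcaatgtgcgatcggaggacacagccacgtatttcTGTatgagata
Ighv1-54: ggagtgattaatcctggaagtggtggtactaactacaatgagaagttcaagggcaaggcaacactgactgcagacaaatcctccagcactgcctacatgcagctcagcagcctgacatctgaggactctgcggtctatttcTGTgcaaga
Ighv1-82: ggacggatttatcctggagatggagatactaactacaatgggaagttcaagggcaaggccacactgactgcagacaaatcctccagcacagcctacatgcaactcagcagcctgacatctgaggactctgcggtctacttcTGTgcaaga
Ighv1-52: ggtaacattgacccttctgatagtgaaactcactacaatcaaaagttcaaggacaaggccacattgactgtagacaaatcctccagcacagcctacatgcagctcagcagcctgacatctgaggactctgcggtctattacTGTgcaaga
The frame was the 1 reading frame without a stop codon over the last 294 bases, which was unique in 113 of 113 segments, and 111 had the cysteine codon within their last 20 bases. Over the last 294 bases the nearest other member of Ighv1-5 was Ighv1-7, 39 edits away (86.7% identity), with 35 counts in the 3 LSK libraries together. Ighv11-2 stood 4 edits from Ighv11-1 (98.6%). Across the 113 segments the median identity to the nearest member was 95.2%, 16 were within 6 edits of another member, and Ighv1-62-2 and Ighv1-71 were identical there. The labels do not say how the authors' counting shared reads between such copies, so values of near-identical segments are uncertain.

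The 6 libraries held 41580006 to 49269286 estimated counts. Of the values from 1 to 20, 40.1 to 47.2% were divisible by 4, and the others were not. A sequenced fragment was taken as 4 counts wherever counting error is given, and 12 counts over a group's 3 libraries served as the floor. This unit is an assumption, and Ighv values of 2, 3 and 5 counts in ESC-derived replicate 3 are not multiples of it. Of the sort markers, Ly6a (Sca-1) had 11239 to 15762 counts in LSK and 21296 to 43420 in the ESC-derived libraries, and Kit had 2081, 2171 and 2550 counts in LSK and 2, 4 and 6 in the ESC-derived libraries. All 12 T cell genes were higher in the ESC-derived cells, beside the 14.8% of all genes that rose in the test given below. Their summed level was 13650 to 14640 library-scaled counts (CPM) against 146 to 176 in LSK. Marker genes of the B lineage were present in the LSK libraries, although the sort is lineage-negative: 18 genes summed to 712 to 741 CPM in LSK and to 10.4 to 20.03 in the ESC-derived libraries, where Vpreb2 and Igll1 were at 0. The 11 plasma cell genes summed to 4506 to 5220 CPM in LSK, mostly Jchain (the chain that joins antibody polymers), and to 467 to 540 CPM in the ESC-derived cells, where Tnfrsf17 was at 0. Of these 11 genes 8 fell and 2 rose in the ESC-derived cells, beside 15.2% and 14.8% of all genes tested. Tnfrsf17 could be tested only through its LSK counts. Slamf7, a surface receptor of several lymphocyte types, rose from 25.03 to 241 CPM. Prdm1, a transcription factor of plasma and effector T cells, rose from 4.10 to 14.8 CPM. The summed levels of these B lineage and plasma cell lists moved with the Ighv difference between the groups, and their part in it was not tested. In bulk RNA, fewer cells of a type and less RNA per cell cannot be told apart.

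LSK replicate 2 lay between the other LSK libraries for nearly every Ighv segment with at least 1000 counts in an LSK library. Of 38 segments with at least 1000 counts in an LSK library, replicate 2 had the middle CPM in 36 (94.7%), against 67.9% of 6453 other tested genes of that level. Its CPM divided by the mean of replicates 1 and 3 had a median of 0.983, with a range of 0.756 to 1.25. Nothing in the labels says that the replicates came from separate animals, and whether the LSK libraries share cells or RNA was not tested. The p-values measure the spread between these samples, which may be technical, and the counts of calls by segment, family, block and gene list are given with and without LSK replicate 2.

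Ighv transcripts were abundant in the LSK libraries and near the floor in the ESC-derived libraries. The 113 segments together had 189858, 205156 and 246195 counts in LSK replicates 1, 2 and 3, and 92, 104 and 437 in ESC-derived replicates 1, 2 and 3. The lowest LSK library was far above the highest ESC-derived library. After scaling by the trimmed mean of M-values (TMM) the level was 4588 ± 728 CPM (SD, n = 3) in LSK and 4.63 ± 3.99 CPM (SD, n = 3) in the ESC-derived cells. Of all counts of a library, Ighv took 0.444, 0.493 and 0.554% in LSK. Of the immunoglobulin counts it took 5.80 to 5.89% in LSK and 0.802, 1.15 and 2.38% in the ESC-derived libraries. The summed LSK level was 952 times the summed ESC-derived level (95% interval 815 to 1120, covering counting error only, with reads not separable into independent molecules). Without ESC-derived replicate 3, which held most of the ESC-derived counts, this ratio was 1970.

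Most of the 113 segments gave no usable signal in the ESC-derived cells, and many gave little in LSK. In LSK replicates 1, 2 and 3, 66, 75 and 74 segments had counts, and 54 had counts in each of the 3. In ESC-derived replicates 1, 2 and 3 there were 3, 3 and 23. Across the 6 libraries 27 segments were at 0 throughout, 85 had counts in LSK and 26 in an ESC-derived library. Ighv3-5, with 5 counts in ESC-derived replicate 3, was the 1 segment with counts in the ESC-derived cells and none in LSK, and is named after its values were seen. There were 52 segments with over 12 LSK counts in all and 0 in the ESC-derived libraries.

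In edgeR's quasi-likelihood test with Benjamini-Hochberg adjustment over 16211 genes, 43 of the 113 segments passed the filter on low counts. Of these, 40 fell in the ESC-derived cells at an adjusted p under 0.05, where 15.2% of all genes tested fell. None rose, against 14.8% of all genes, and the count of segments higher in the ESC-derived cells was also 0 at an unadjusted p under 0.05, with DESeq2 and with limma-voom. In 39 of the 40 the LSK and ESC-derived values did not overlap, as in 27.2% of all genes with the ESC-derived side lower. The median log2 fold change, ESC-derived minus LSK, was -10.63 over the 43 segments and -0.07 over all genes. The filter nearly fixed this outcome, so the counts support nothing by themselves. Of the 43 segments, 39 reached the filter's minimum in the 3 LSK libraries alone and none reached it in the 3 ESC-derived libraries. All 39 fell. The other 4 passed with the help of an ESC-derived library, and of these Ighv1-12 fell while Ighv9-2, Ighv13-2 and Ighv1-84 did not pass the threshold (Ighv1-12 and Ighv1-84 are named after their values were seen). Ighv1-12 had 4154, 2098 and 4 LSK counts against 0, 0 and 12 ESC-derived counts, so its groups also overlapped. Its adjusted p reached 0.479 over its 15 alternatives. Without LSK replicate 2, 29 of 44 tested segments fell, where 7.34% of all genes tested fell.

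The remaining 70 segments were not tested. Of them 43 had counts, and 10 had over 1000 LSK counts in all yet failed the filter, each with under 10 counts in 1 LSK library. Ighv1-85 was the extreme, with 7250, 3154 and 0 counts in LSK replicates 1, 2 and 3 and 0, 0 and 3 in the ESC-derived libraries. At the other end of the cluster Ighv5-2, also untested, had 15, 9 and 12 counts in LSK and none in the ESC-derived libraries.

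**Figure D1:**
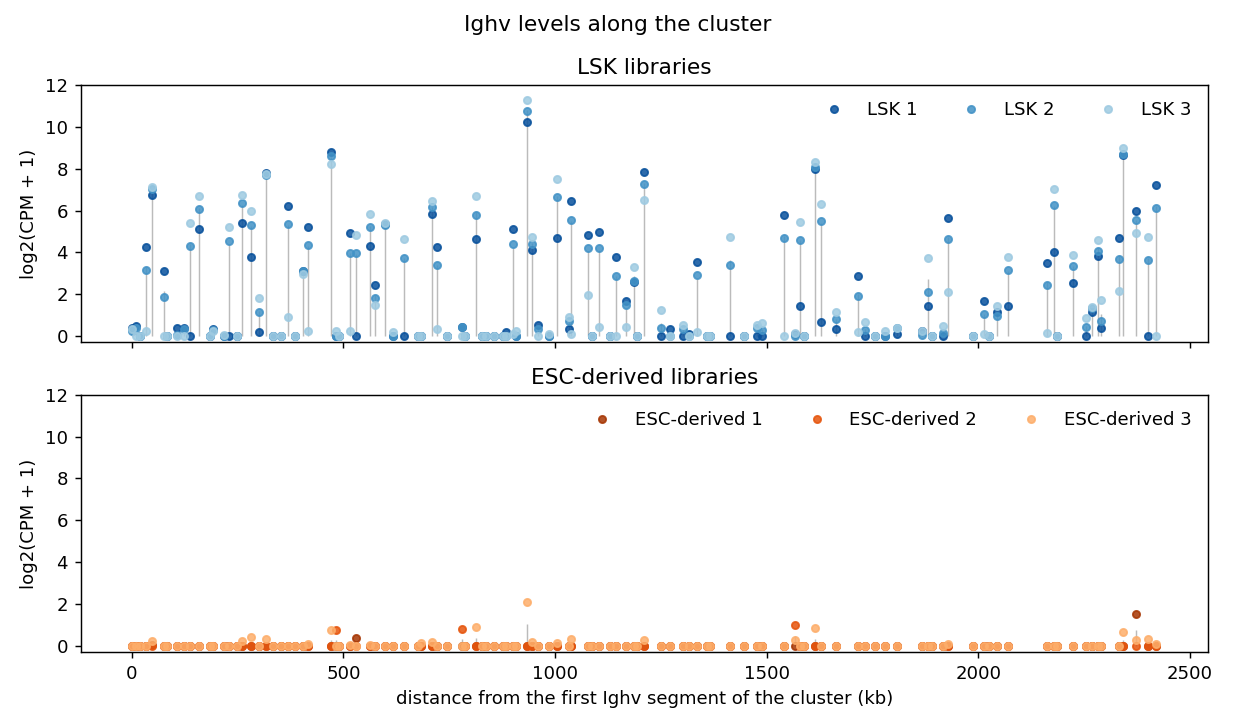
TMM-scaled level of the 113 Ighv segments as log2(CPM + 1), against distance from the D-proximal Ighv5-2 in kb. Points are single libraries and grey lines reach to the group mean. Ighv1-5 is the highest point in LSK, while ESC-derived values stay near 0 along the whole cluster.

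A single segment, Ighv1-5, led each of the 3 LSK libraries. It had 57606, 79123 and 112495 counts in LSK replicates 1, 2 and 3 and 0, 0 and 156 in the ESC-derived libraries. Every LSK value was far above the ESC-derived values, of which only replicate 3 was above 0. Its log2 fold change was -10.63 ± 1.70 (SE), adjusted p 0.0046 in edgeR's test, and its LSK level was 1502 times the ESC-derived level (counting interval 1099 to 2113). The whole ESC-derived value came from replicate 3: without that library the segment was at 0, and over the 18 alternatives the fitted log2 fold change ran from -19.29 to -10.06. Its usage share, meaning its counts per exon base as a percentage of that sum over all 113 segments, was 29.3, 37.4 and 44.4% in the LSK libraries, a mean of 37.0 ± 7.51 (SD, n = 3). The runner-up was below it in each library by more than the spread over the 3.

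That runner-up was Ighv1-81, with 19467, 19277 and 23461 LSK counts and a usage share of 11.2, 10.3 and 10.4%. It had 29 counts in ESC-derived replicate 3 and none in the others, and fell by 10.995 ± 1.06 on the log2 scale (adjusted p 0.000577, edgeR). Its 3 LSK shares did not overlap with those of the next segment. Ighv11-2, whose family of 2 members is known from B-1 cell antibodies to phosphatidylcholine, had 21735, 17577 and 13849 counts and 9.49, 7.12 and 4.68% of LSK usage. Ighv1-54 held 6.45, 6.09 and 6.06% and Ighv7-1 held 5.92, 4.90 and 4.17%. These 2 did not overlap with each other, but Ighv11-2 overlapped with both. Each of the 3 fell in the ESC-derived cells, with log2 fold changes of -10.58 ± 1.11 (Ighv11-2), -9.91 ± 1.16 (Ighv1-54) and -11.06 ± 0.85 (Ighv7-1).

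The next 3 segments by mean LSK usage overlapped among themselves and could not be ordered. Ighv1-26 held 6.27, 3.74 and 1.85% of usage in LSK replicates 1, 2 and 3. Ighv1-9 ran the other way with 0.683, 2.43 and 3.73%. Ighv5-6 lay at 2.95, 3.09 and 2.79%, the narrowest spread of the 3. All fell in the ESC-derived cells, with log2 fold changes of -10.98 ± 0.95 (Ighv1-26), -11.31 ± 1.25 (Ighv1-9) and -10.51 ± 0.67 (Ighv5-6). The adjusted p of Ighv1-9 was 0.00103 and reached 0.127 over its 18 alternatives, with limma-voom ending the call.

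**Figure D2:**
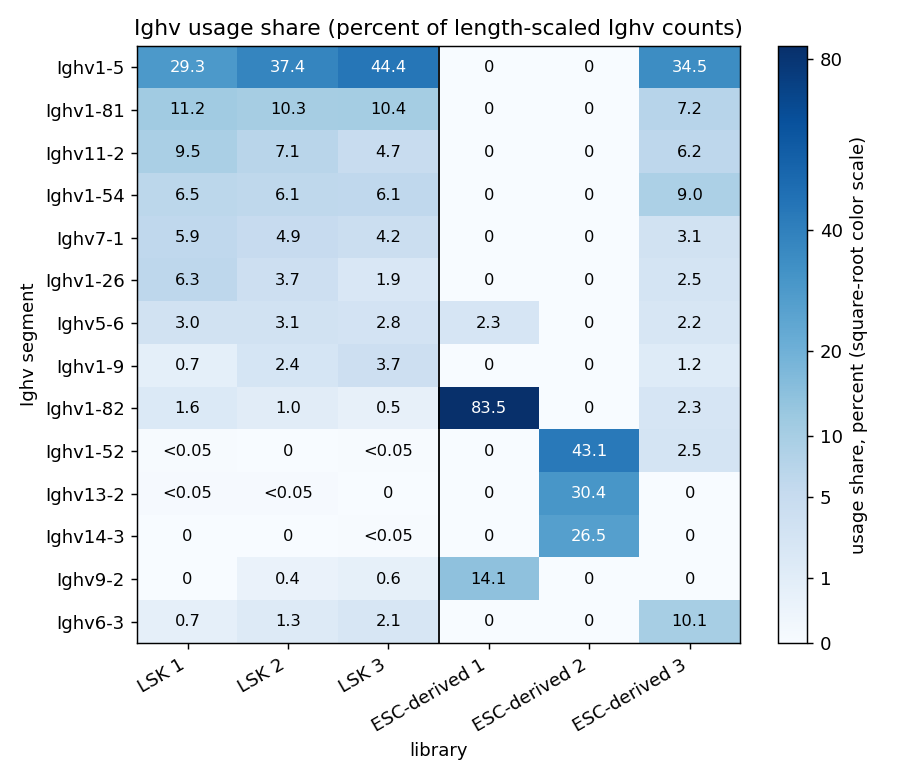
Usage share in percent of the 14 segments that were among the 8 highest by mean usage in LSK or in the ESC-derived libraries, by library, on a square-root color scale with the values printed. The 3 LSK columns and ESC-derived replicate 3 are led by Ighv1-5, ESC-derived replicate 1 by Ighv1-82 and replicate 2 by Ighv1-52.

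The LSK usage was concentrated on few segments. The 8 leading segments of each library took 75.7, 75.0 and 78.5% of its usage. The effective number of segments, the inverse of the summed squared shares, was 8.04, 5.99 and 4.53 in LSK replicates 1, 2 and 3, a mean of 6.19 ± 1.76 (SD, n = 3). With Ighv1-5 taken out, the effective number was 13.1, 14.5 and 13.0. The kappa light chain V segments (Igkv) were about as concentrated, with a leading share of 31.3, 41.5 and 49.8% and an effective number of 7.02, 4.88 and 3.66.

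**Figure D3:**
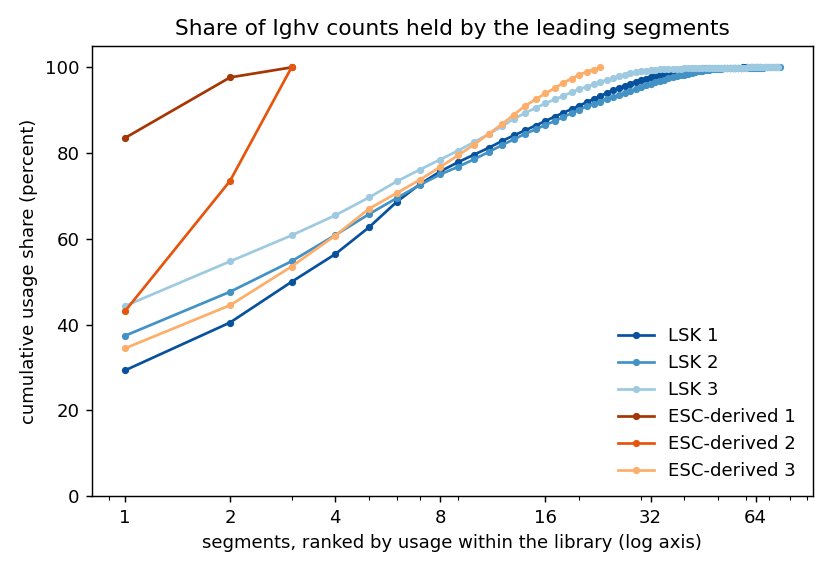
Cumulative Ighv usage share in percent against the rank of the segment within its library (log axis), 1 line per library. The leading segment alone holds 29.3 to 44.4% in LSK, and ESC-derived replicates 1 and 2 reach 100% at the third segment.

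Part of the LSK repertoire differed between libraries. Between replicates 1 and 3, 17 of the 38 segments with at least 1000 counts in an LSK library (44.7%) differed by over 10-fold, against 0.496% of the 6453 other tested genes of that level and 54.3% of 46 Igkv segments. The median absolute log2 ratio of replicate 1 to 3 was 2.95 for the Ighv segments and 0.31 for the other genes. The 21 segments within 10-fold took 82.5, 88.0 and 92.7% of usage in replicates 1, 2 and 3. Segments over 10-fold higher in replicate 1 numbered 9, among them Ighv1-85, Ighv4-1 and Ighv10-1. These 9 took 14.2, 6.30 and 0.0926%. The 8 segments over 10-fold higher in replicate 3, among them Ighv2-6, Ighv1-55 and Ighv9-2, took 0.0622, 3.57 and 5.78%. In replicate 2 each of these 17 segments had 100 or more counts.

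Single segments of the one-sided classes show the range. Ighv2-6 had 0, 865 and 1887 counts in LSK replicates 1, 2 and 3, and none in the ESC-derived libraries. Ighv4-1 had 3601, 1812 and 41, and Ighv10-1 had 1611, 913 and 3, again with none in the ESC-derived libraries. These segments were high at 1 end and nearly or fully absent at the other, with replicate 2 between. The smaller usage shared by 2 libraries, summed over segments, was 68.4% between replicates 1 and 3, 81.9% between 1 and 2 and 86.1% between 2 and 3. Pearson's r of log2(counts + 1) over the 113 segments, as a description, was 0.58, 0.86 and 0.83 for these pairs.

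**Figure D4:**
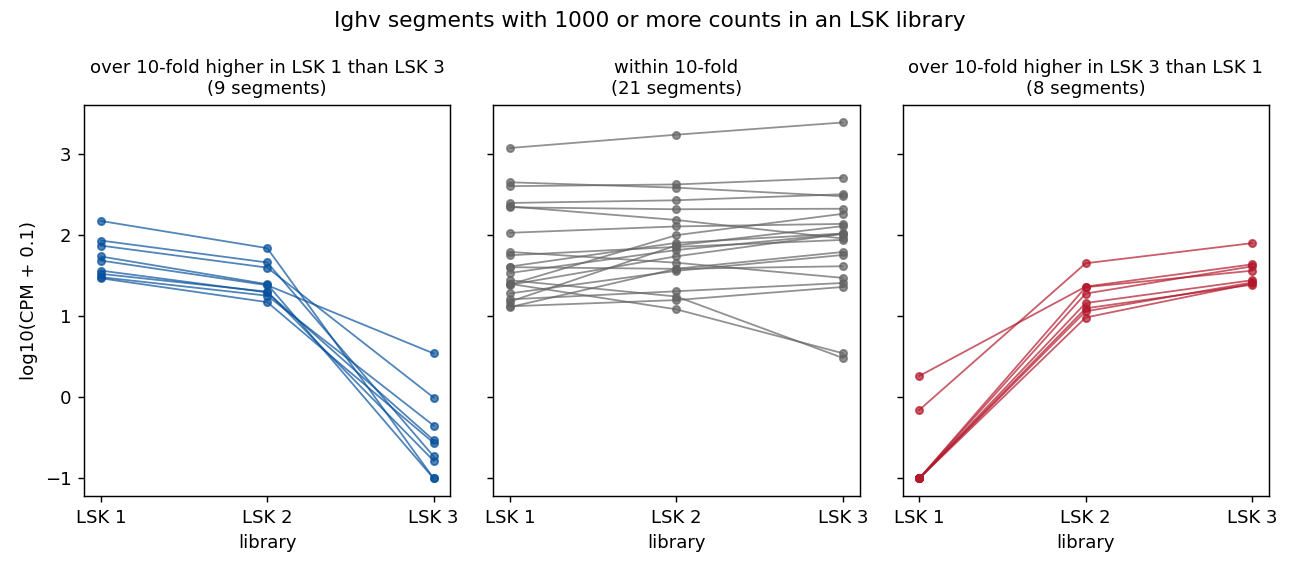
Level in the 3 LSK libraries as log10(CPM + 0.1) of the 38 segments with at least 1000 counts in an LSK library, with lines joining the values of a segment, split by whether replicates 1 and 3 differed by over 10-fold. In the 9 and 8 segments that did, replicate 2 lies between the other libraries.

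By family, named by the number after Ighv, the large Ighv1 family (53 of 113 segments) took 71.2 ± 2.64% (SD, n = 3) of LSK usage. Without Ighv1-5 it took 55.9, 53.3 and 53.4% of the rest, near its 46.9% share of the segments. Of its 53 members, 46 had LSK counts, 25 were tested and 24 fell, beside the 15.2% of all genes that fell, and 15 of 25 fell without LSK replicate 2. Ighv11 took 7.28 ± 2.44%, Ighv5 6.62 ± 1.32% and Ighv7 5.28 ± 0.72%, each with every tested member lower in the ESC-derived cells (2, 4 and 2 members). Without LSK replicate 2 these were 2 of 2, 4 of 5 and 2 of 2. All of these family counts are under the limit of the filter given above and support nothing by themselves. The 9 segments of Ighv2 all had LSK counts but took 1.23 ± 0.45% and none was tested. Ighv8, also with 9 segments, took 0.252 ± 0.026%, with Ighv8-12 its lead and the 1 member tested. Ighv8-12 was at 0 in the ESC-derived libraries and at least 81.9-fold lower there against the floor (fitted log2 fold change -11.42 ± 1.59).

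The remaining families took under 2% of LSK usage each. Their leads were Ighv3-6, Ighv4-1, Ighv6-3, Ighv9-3, Ighv10-1, Ighv13-2, Ighv14-4 and Ighv15-2. Ighv3-6 (2734, 3269 and 4008 LSK counts, and 6 in ESC-derived replicate 3) and the less even Ighv9-3 (923, 1653 and 2609, and 2) fell in the ESC-derived cells, with log2 fold changes of -10.55 ± 0.83 and -11.03 ± 0.92. Ighv15-2 had 3 LSK counts, under the floor, and the single segments of Ighv12 and Ighv16 had none. Ighv4-1 fell by 13.76 ± 2.80 at an adjusted p of 0.0219, which rose to 0.258 among its 17 alternatives, with the call lost without LSK replicate 1 or 2, without any single ESC-derived library, in limma-voom and in the fit with no low-count filter.

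LSK usage was found in every part of the cluster, with the largest share in the block that holds Ighv1-5. In 4 blocks of 28, 28, 28 and 29 segments from the D-proximal side, LSK usage was 21.5 ± 3.01, 46.4 ± 9.39, 14.7 ± 3.92 and 17.4 ± 2.55% (SD, n = 3). The second block holds Ighv1-5. With that segment taken out, the 4 blocks held 34.4, 10.4, 26.6 and 28.7% in LSK replicate 1. They held 34.97, 15.2, 23.1 and 26.8% in replicate 2 and 32.9, 19.96, 19.7 and 27.5% in replicate 3. The first and last blocks then held the most in each LSK library. Of the tested segments 8 of 8, 9 of 11, 10 of 10 and 13 of 14 fell in the 4 blocks, beside 15.2% of all genes, under the same limit of the filter. Without LSK replicate 2 it was 7 of 9, 8 of 11, 5 of 10 and 9 of 14, beside 7.34% of all genes.

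The largest falls by fitted fold change were in segments at 0 in all 3 ESC-derived libraries, where the fit gives no bound. Ighv1-72 had 731, 3414 and 5930 LSK counts and was at least 789-fold lower in the ESC-derived cells against the floor (log2 fold change -14.69 ± 1.71, adjusted p 0.00425). It stands 2 edits from Ighv1-62-3 over the last 294 bases, and its adjusted p reached 0.0987 among its alternatives, with limma-voom ending the call. Ighv5-9-1 had 1653, 2992 and 4764 LSK counts and was at least 737-fold lower (adjusted p 0.000824). Ighv14-4 had 1948, 1750 and 1894 and was at least 438-fold lower (adjusted p 0.000107). Ighv1-55 had 29, 2051 and 3653 and was at least 449-fold lower over the group, at an adjusted p of 0.0263. That call rose to 0.31 among its alternatives and was lost without LSK replicate 2 or 3, without any single ESC-derived library, in limma-voom and in the unfiltered fit.

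The few Ighv counts of the ESC-derived cells were on different segments in each library. Replicate 1 had 78 counts on Ighv1-82, 12 on Ighv9-2 and 2 on Ighv5-6. Replicate 2 had 43 on Ighv1-52, 31 on Ighv13-2 and 30 on Ighv14-3. No segment had counts in both, and no segment had counts in all 3 libraries, while Ighv5-6, Ighv1-52 and Ighv1-82 had counts in 2.

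The segments that led ESC-derived replicates 1 and 2 were minor in LSK. Ighv1-82 had 3006, 2082 and 1361 LSK counts, 1.04 ± 0.51% of LSK usage, against 83.5% in ESC-derived replicate 1. It still fell in the ESC-derived cells, by 6.06 ± 1.35 on the log2 scale (adjusted p 0.0157), the smallest fall among the 40 segments called. Without LSK replicate 1 the adjusted p was above the threshold, and over its 18 alternatives it ran from 0.0013 to 0.0511. Ighv1-52 had 4, 0 and 5 LSK counts, Ighv14-3 had 0, 0 and 8, and Ighv13-2 had 17, 16 and 0, so none of the 3 segments of ESC-derived replicate 2 reached 0.01% of LSK usage. In fragments of 4 counts, the level in LSK was 0.16 times the ESC-derived level for Ighv1-52 (counting interval 0.021 to 0.66), while the interval for Ighv14-3 (0.026 to 1.28) took in equal levels. Across libraries Ighv1-52 was tested only without the low-count filter, where its adjusted p was 0.427.

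Among tested segments 3 did not pass the threshold. Ighv13-2 had a log2 fold change of 0.06 ± 2.12 (adjusted p 0.988). Ighv9-2 had 0, 660 and 1272 LSK counts and 12, 0 and 0 ESC-derived counts, with a log2 fold change of -7.19 ± 2.55 (adjusted p 0.0773). Ighv1-84 had 0, 520 and 1193 against 0, 0 and 12, with -7.12 ± 2.54 (adjusted p 0.0784). In the last 2 the LSK replicate at 0 made the groups overlap.

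ESC-derived replicate 3 differed from the other ESC-derived libraries in both amount and pattern. Its 437 counts fell on 23 segments, led by Ighv1-5 with 156 counts (34.5% of usage), then Ighv6-3 with 41 (10.1%), Ighv1-54 with 39 (9.03%) and Ighv11-2 with 33 (6.25%). It had counts on 11 of the 12 segments with the most LSK counts, holding 71.4% of its Ighv counts, where replicate 1 had 2.17% and replicate 2 had 0%. It shared 69.0, 73.9 and 69.7% of its usage with LSK replicates 1, 2 and 3, within the range seen between LSK libraries at its lower end. ESC-derived replicates 1 and 2 shared at most 3.91% and 0.0118% with any LSK library.

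Depth was set against these patterns, treating fragments as independent, which amplified cDNA is not, so the values cover counting error only. If an LSK library is thinned to the 109 fragments of ESC-derived replicate 3, 23.95, 25.03 and 21.1 segments would be seen on average in LSK replicates 1, 2 and 3, and ESC-derived replicate 3 had 23. ESC-derived replicate 1, with 23 fragments, had 3 segments, where the LSK libraries thinned to that depth would give 11.04, 10.7 and 9.64 and ESC-derived replicate 3 would give 10.6. ESC-derived replicate 2, with 26 fragments, also had 3. In the thinning, values of 2 counts or fewer rounded to 0 fragments, but the observed numbers include such segments. They are Ighv9-1 and Ighv9-3 in replicate 3 and Ighv5-6 in replicate 1, with 2 counts each. The 23 segments of replicate 3 are thus not like for like with the thinned LSK values, and their place beside that range cannot be read from them. The count in replicate 1 was below the values at its depth, with or without Ighv5-6.

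The level of ESC-derived replicate 3 was 0.201% of the LSK mean CPM for all Ighv segments, 0.184% for Ighv1-5, 0.138% for Ighv1-81 and 0.184% for Ighv11-2. Among other transcripts looked at, 0.238% of the LSK level was seen for all Igkv segments, 0.188% for Jchain, 0.239% for Cd34, 0.19% for Flt3, 0.26% for Kit and 0.36% for Meis1. Cd79a, a B cell receptor subunit, stood higher at 1.37%, as did Ighm. In ESC-derived replicates 1 and 2 the fraction was 0.0477 and 0.0535% for Ighv and 0.0961 and 0.0583% for Igkv. Flt3 was at 0 in both, and Cd34 stood at 0.0161 and 0%. Kit stood at 0.0978 and 0.194% and Meis1 at 0.203 and 0.302%. These rest on 2 and 4 counts for Kit and 4 and 6 for Meis1, beside 6 and 8 in replicate 3. At an assumed 4 counts per fragment, such values are too low to compare between the replicates. Jchain stood at 0.14 and 0.033%, and Cd79a at 0.585 and 1.15%. Hoxa9 was at 0 in each of the 3 libraries. Whether LSK-like cells or their RNA are behind the Ighv counts of replicate 3 was not tested. Leaving that library out left 33 segments called lower, of 72 tested, 33 of them among the 40.

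**Figure D5:**
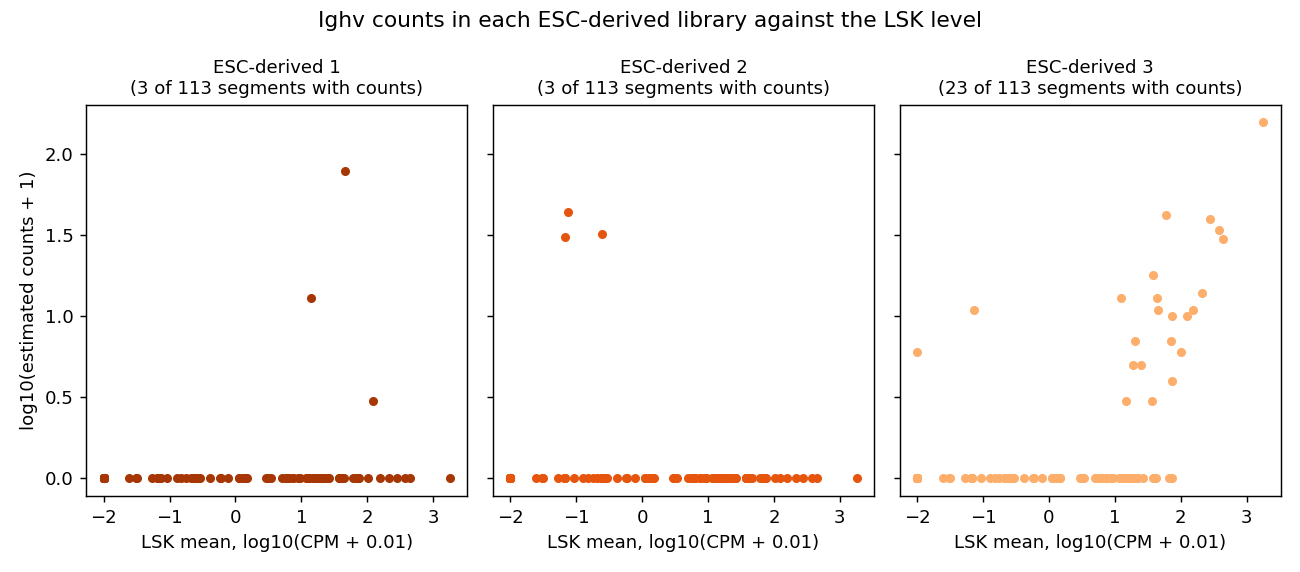
Estimated counts of the 113 segments in each ESC-derived library as log10(counts + 1), against their mean LSK level as log10(CPM + 0.01). In replicate 3 the counts sit mostly on segments high in LSK, with Ighv1-5 at the upper right, and the 3 segments of replicate 2 are at the low end of LSK.

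Among the constant genes, Ighm gave a different picture from the V segments. It is the constant gene of IgM and had 555851, 607911 and 717768 counts in LSK and 8693, 7023 and 9727 in the ESC-derived libraries, which is 1.54, 1.23 and 1.53% of the LSK mean CPM. All 3 ESC-derived libraries held it at a like level, whereas Ighv stood at 0.0477 to 0.201%. Per base of exon, the Ighv segments had 1.34, 1.33 and 1.37 times the counts of the 8 heavy constant genes in LSK replicates 1, 2 and 3. In the ESC-derived libraries this ratio was 0.0524, 0.0762 and 0.211, below LSK in each library. Ighm made up 74.1 to 75.8% of the heavy constant counts in LSK and 94.0 to 99.9% in the ESC-derived libraries. With Ighm taken out, the ratio was 6.48, 6.58 and 7.20 in LSK and 36.3, 92.03 and 4.30 in the ESC-derived libraries. It was then above LSK in ESC-derived replicates 1 and 2, on very few constant counts, and still below every LSK value in replicate 3. Igha, Ighg2c, Ighg2b and Ighg3 had nearly all of their ESC-derived counts in replicate 3, at 0.191% of the LSK mean CPM for Igha, 0.206% for Ighg2c, 0.297% for Ighg2b and 0.604% for Ighg3, and Ighd had 631, 601 and 417 counts in LSK and 4, 0 and 171 in the ESC-derived libraries. Against the kappa V segments the gap was smaller: Ighv had 20.4 to 20.8% of the Igkv counts in LSK and 10.2, 18.9 and 17.4% in the ESC-derived libraries, again below every LSK value.

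Genes of the same process were looked at beside the V segments. Among 8 genes of receptor rearrangement, 7 were tested, 2 fell and none rose, where 15.2% of all genes fell and 14.8% rose. Without LSK replicate 2, 1 of 7 fell. Dntt, which adds untemplated bases at the joints, had 12343, 12324 and 13789 counts in LSK and 4, 0 and 20 in the ESC-derived libraries. Rag1, a subunit of the recombinase, had 0, 0 and 8 counts in LSK, and Rag2 had 232, 113 and 12. Rag2 and Dntt were the genes that fell (log2 fold change -9.83 ± 2.01 and -10.56 ± 0.77), and both were lower in every ESC-derived library than in any LSK library. Rag2 was at 0 in every ESC-derived library, so the filter fixed its direction and the fit gives no bound on its fall. Of the B lineage list 12 of 17 tested genes fell, of the heavy constant genes 5 of 6 and of Igkv 55 of 60, beside 15.2% of all genes, and none of these 3 lists had a gene that rose. Without LSK replicate 2 the counts were 9 of 17, 5 of 6 and 47 of 60, beside 7.34% of all genes. Rag2, Vpreb2, Igll1 and the tested Igkv segments at 0 in every ESC-derived library could pass the filter only through LSK. Dntt, Igha, Ighg2b, Ighg2c, Ighg3, Vpreb3, Blnk and others were at 0 in 1 or more ESC-derived libraries, so they also needed LSK libraries to pass. The limit given for Ighv thus applies in part to the rearrangement, B lineage, heavy constant and Igkv counts. Of the plasma cell genes 6 of 11 then fell and 1 rose, and all 12 T cell genes still rose, beside the 8.61% of all genes that rose.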

How the data were processed

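RNA from 2000 sorted cells per library was made into cDNA with SMART-Seq v4 and into libraries with Nextera XT, per the labels' protocols, a chemistry that does not mark strand, so antisense reads cannot be told apart. The authors deposited estimated counts per gene, written as whole numbers and not normalized. HISAT, StringTie and mm10 are named in the submitters' processing notes, with versions, annotation and multiply mapped reads not given in the sources used here. Of 55401 gene IDs, 55141 matched GENCODE M21, which gave symbols, biotypes and exon lengths.

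Counts were fitted with edgeR 4.0.16 (quasi-likelihood, TMM, filterByExpr, 2-sided, Benjamini-Hochberg at 0.05) over all genes, 3 LSK against 3 ESC-derived libraries without a block. CPM used TMM-scaled library sizes. The SE given with a log2 fold change is the absolute fold change divided by the square root of the test's F statistic. It is thus approximate, above all for genes at 0 in a whole group. Depth was 41580006 to 49269286 counts per library. Intervals are exact and cover counting error at an assumed 4 counts per fragment. DESeq2 1.42.0, limma 3.58.1 and other scalings, filters and left-out libraries were alternatives. The fitting script was tested on simulated data.

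Segments were named by rank (8 highest mean usage in each group, 10% of a library's usage, 4 largest falls among calls, family leads and cluster ends). The members and lists were chosen with earlier results of these data known.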

Additional observations from a re-analysis of the deposited data

How the results depend on the processing

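The count of segments lower in the ESC-derived cells stayed within 1.5 times the 40 reported under each of the 18 alternatives run, and the count higher stayed at 0. Where a filter was used, it nearly fixed the direction of the calls, so this stability supports nothing by itself. The count lower was 40 with DESeq2, 29 with limma-voom (all 29 among the 40) and 39 against a 2-fold change. It was 42 of 86 tested with no low-count filter (34 of them among the 40) and 32 of 32 tested with the values divided by 4. Leaving out a library gave 29 to 48, the lowest without LSK replicate 2. Scaling by library totals moved the median log2 fold change of all genes by -0.25 and left the count at 40. With the replicate number as a block, 33 segments fell, 32 of them among the 40. The deviations of same-numbered LSK and ESC-derived libraries from their group means correlated at 0.011, 0.045 and 0.015, so the numbers were not taken as a pairing, and LSK replicate 1 did not correlate best with its own number alone. The mean LSK usage of Ighv1-5 was 38.2% without division by exon length and 33.4 to 40.9% with a library left out. The mean Ighv share of all counts in the ESC-derived libraries was 0.000434%, and 0.000208% without replicate 3. Segments under 12 counts over a group are at the limit of detection.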

Other observations

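The D and J segments and the Ighv pseudogenes had few counts. The 4 annotated J segments had 58, 41 and 55 counts in LSK replicates 1, 2 and 3 and none in the ESC-derived libraries. The 19 annotated D segments had 7, 16 and 22 counts in LSK, and 2, 0 and 0 in the ESC-derived libraries. The 70 Ighv pseudogenes had 43, 64 and 100 counts in LSK and 0, 23 and 0 in the ESC-derived libraries, so adding their rows to the members raised the LSK share of all counts from 0.497 to 0.4971%.

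Among heavy constant genes other than Ighm, Igha, the constant gene of IgA, had 164622, 176183 and 192996 counts in LSK and 0, 0 and 346 in the ESC-derived libraries. Ighg3 had 4973, 3295 and 1610 LSK counts and Ighg2b had 13720, 19047 and 25706, with LSK replicate 2 between the others in both. Ighe had no counts in any of the 6 libraries.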
